A study of Mus musculus with 15 samples.

Results

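The comparison described here sets macrophages primed with interferon γ (IFNγ) against macrophages primed with interferon β (IFNβ), both then activated with bacterial lipopolysaccharide (LPS). It rests on 3 arrays of cells given IFNγ for 18 h and LPS for 6 h, called IFNγ-primed below, and on 2 arrays of cells given IFNβ for 18 h and LPS for 6 h, called IFNβ-primed. The cells were bone marrow-derived macrophages of specific pathogen-free C57Bl/6 mice, and total RNA was measured on Illumina bead arrays. The other groups used for reference were LPS alone for 6 h (2 arrays), IFNγ alone (3 arrays) and IFNβ alone (2 arrays), each interferon for 18 h, and unstimulated cells (3 arrays). Ultrapure Escherichia coli LPS was given at 10 ng per µl in every LPS group, as the labels have it, a unit that could not be checked here. The sources used here give neither the interferon doses nor the age and sex of the mice, and do not say if replicate arrays are separate cultures or animals. The p-values therefore cover array-to-array spread, part of which may be technical. A gene was counted if its probe was detected, with a detection p under 0.01, on all IFNγ-primed arrays or on all IFNβ-primed arrays. This held for 6523 genes, out of 7669 genes tested in the series and 10900 gene symbols on the table.

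IFNγ, the only type II interferon, comes chiefly from T cells and natural killer cells, and its receptor signals through Jak1 and Jak2 and acts on promoters with GAS elements. IFNβ is a type I interferon, and its receptor signals through Jak1 and Tyk2 and acts mainly on promoters with ISRE elements. LPS acts through Tlr4, and part of the response to it passes through IFNβ that the macrophages themselves release. IFNγ is known in macrophages for class II antigen presentation and killing of intracellular microbes, and type I interferon for antiviral genes and for Il10.

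Levels below are normalised log2 intensities, and a difference is the IFNγ-primed mean minus the IFNβ-primed mean on that scale, so that 1 unit is a doubling. Per array, 9342 to 9963 probes were detected under LPS, the median raw intensity was 143 to 217, and the highest level any probe reached was 15.4, so that differences among the brightest genes are compressed. Macrophage markers were measured for 9 of the 12 listed genes, all of them detected; their summed linear intensity was 105000 to 124000 on the IFNγ-primed and 133000 to 136000 on the IFNβ-primed arrays. Their median difference was −0.31, and 0 of the 9 were called by limma between the primings; 2 were lower without IFNγ-primed array 1, 2 with no background correction, and 1 each with an offset of 50 and with cyclic loess. Markers of mast cells and fibroblasts that could be measured (Cpa3, Fcer1a and Thy1) were detected on no array of the 2 groups. Neither were Cd3e, Cd4 and Klrb1c of T and natural killer cells or Epor and Itga2b of the erythroid and megakaryocytic list, whose 2 measured genes, Klf1 and Pf4, summed to 4840 to 5150 against 6530 to 7800. Cd28 and Il2rb of the T and natural killer cell list were detected on at least 1 array of the 2 groups. Cd28, the 1 gene of that list tested, was at a linear 219 to 271 against 274 to 378. It was not called (−0.44), but was called lower with cyclic loess.

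IFNγ-primed array 1 stood apart from IFNγ-primed arrays 2 and 3 and lay between them and the IFNβ-primed arrays. Among the 138 genes that arrays 2 and 3 placed over 1.5 log2 above the IFNβ-primed mean, array 1 covered a median of 0.51 of the linear distance, and all 138 lay closer to the IFNβ-primed mean than arrays 2 and 3 did. Among the 123 genes placed over 1.5 log2 below it, array 1 covered a median of 0.57 of the distance. Genes chosen in the same way without array 2, or without array 3, gave medians of 1.31 and 1.36 above and 1.11 and 1.11 below. Those sets were chosen on, and measured against, a mean that includes array 1, so these medians depend on its position too. On the first principal component of the 7 LPS arrays, which held 60.7% of the variance, array 1 scored 8.31, arrays 2 and 3 scored 33.57 and 33.10, and the IFNβ-primed and LPS-alone arrays lay between −21.4 and −15.71. Array 1 was kept, as labelled, and the counts without it are given for the whole comparison and for the gene lists counted below where they differ.

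**Figure D1:**
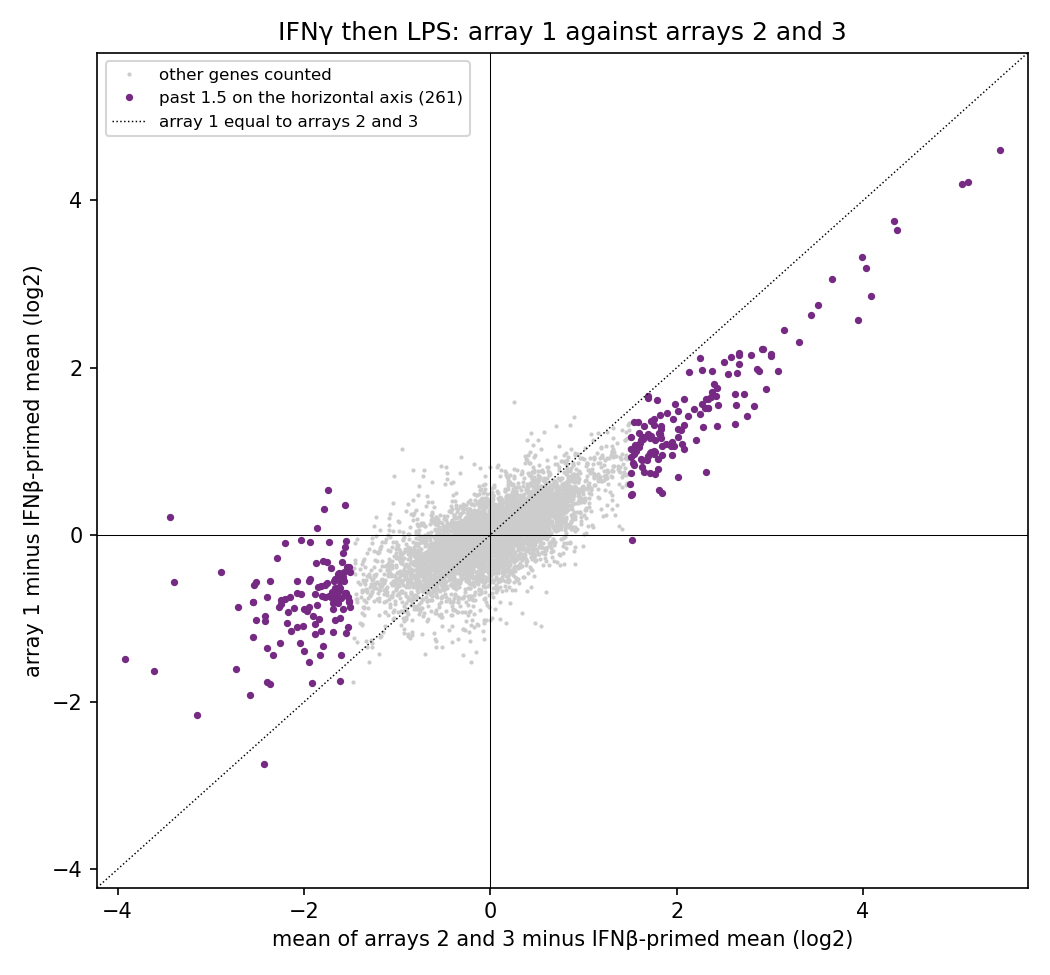
IFNγ-primed array 1 (vertical) against the mean of IFNγ-primed arrays 2 and 3 (horizontal), each minus the IFNβ-primed mean, in log2 units; each point is 1 of the 6523 genes counted. The 138 genes past 1.5 to the right and the 123 past −1.5 to the left lie mostly between the horizontal axis and the line of equality, so array 1 shows the same directions at smaller size.

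Under LPS, 995 of the 6523 genes (15.3%) were called between the primings at an adjusted p under 0.05 by limma. IFNγ-primed cells had 500 genes higher (7.67% of the genes counted) and 495 lower (7.59%). Of these, 235 were more than 1 log2 higher and 201 more than 1 log2 lower, against a median standard error of 0.21 for a difference. Every IFNγ-primed array lay above every IFNβ-primed array for 498 of the 500 genes called higher and below for 491 of the 495 called lower. Among all genes counted, called or not, 21.9% lay wholly above and 21.4% wholly below. The median difference over all genes counted was −0.01. Without IFNγ-primed array 1 the calls came to 1441, 688 higher (10.5%) and 753 lower (11.5%), and all 995 genes kept their sign and 963 their call.

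The size of the count rests on how the spread between arrays is estimated. With all 15 arrays in the fit it was 995. With only the 7 arrays of the slide that carried every LPS sample it was 393, with 232 higher (3.56%) and 161 lower (2.47%), of which 390 were among the 995, and with only the 5 arrays compared it was 176. Leaving out IFNβ-primed array 2 gave 497, IFNγ-primed array 2 564 and array 3 575. Scaling each array to its median in place of quantile normalisation gave 664 genes higher and 379 lower. Of the 127 genes called and named below, 71 stayed called on that slide alone, 111 on that slide without IFNγ-primed array 1, and 67 when each of the 5 arrays was left out in turn.

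**Figure D2:**
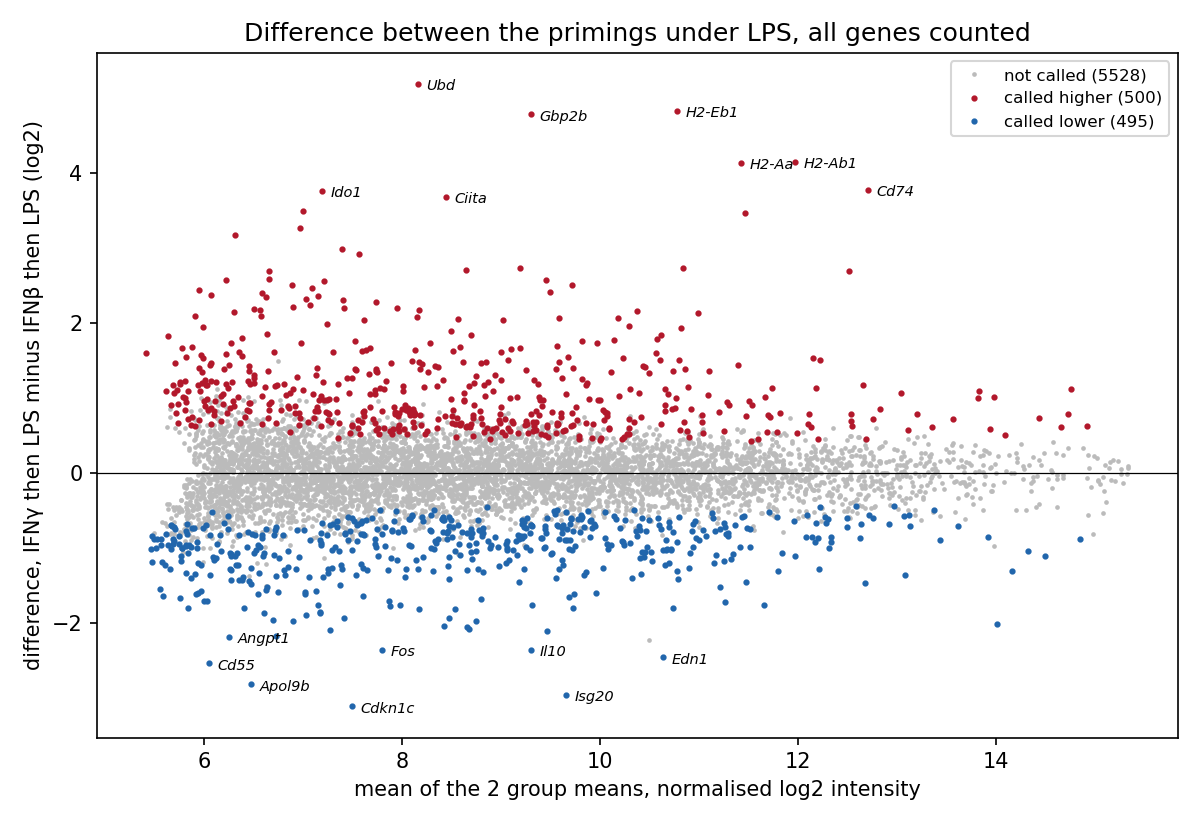
Difference between the primings under LPS (vertical, log2, IFNγ-primed minus IFNβ-primed) against the mean of the 2 group means (horizontal, normalised log2 intensity) for the 6523 genes counted. Red points are the 500 genes called higher, blue points the 495 called lower and grey points those not called; the largest differences reach 5.18 upward and −3.11 downward.

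Genes of class II antigen presentation held 6 of the 10 largest differences in favour of IFNγ. H2-Eb1, the class II β chain of I-E, stood at 12.58, 13.43 and 13.55 on the IFNγ-primed arrays and at 8.39 and 8.33 on the IFNβ-primed arrays. The groups were far apart, at a difference of 4.82 ± 0.25 (SE, limma adjusted p = 5.09e-08), a 28.3-fold difference in intensity. H2-Ab1 and H2-Aa, the chains of I-A, differed by 4.14 and 4.13. Cd74, the invariant chain that escorts class II molecules, was at 14.15, 14.87 and 14.75 against 10.72 and 10.92, and H2-DMa, which helps to load peptide, at 12.79, 13.37 and 13.40 against 9.91 and 9.55. Ciita, the transactivator on which class II transcription depends, was at 9.46, 10.75 and 10.63 against 6.52 and 6.69, a difference of 3.68 ± 0.29 (adjusted p = 3.47e-06). For each of these genes array 1 was the lowest of the 3 IFNγ-primed arrays and still more than 2 log2 units above both IFNβ-primed arrays. LPS alone lay beside the IFNβ-primed arrays, with a mean of 8.24 for H2-Eb1 and 6.62 for Ciita.

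Ubd had the largest difference of all genes counted. It encodes FAT10, a ubiquitin-like modifier that marks proteins for the proteasome, and stood at 10.18, 11.13 and 10.94 against 5.91 and 5.24, a difference of 5.18 ± 0.29 (adjusted p = 7.75e-08). Gbp2b, a guanylate-binding protein, was at 11.11, 11.85 and 12.10 against 6.95 and 6.87, a 27.4-fold difference. Both genes were named among called genes whose groups of arrays do not overlap, so their separation follows from that choice. Ubd was detected on only 1 of the 2 IFNβ-primed arrays.

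**Figure D3:**
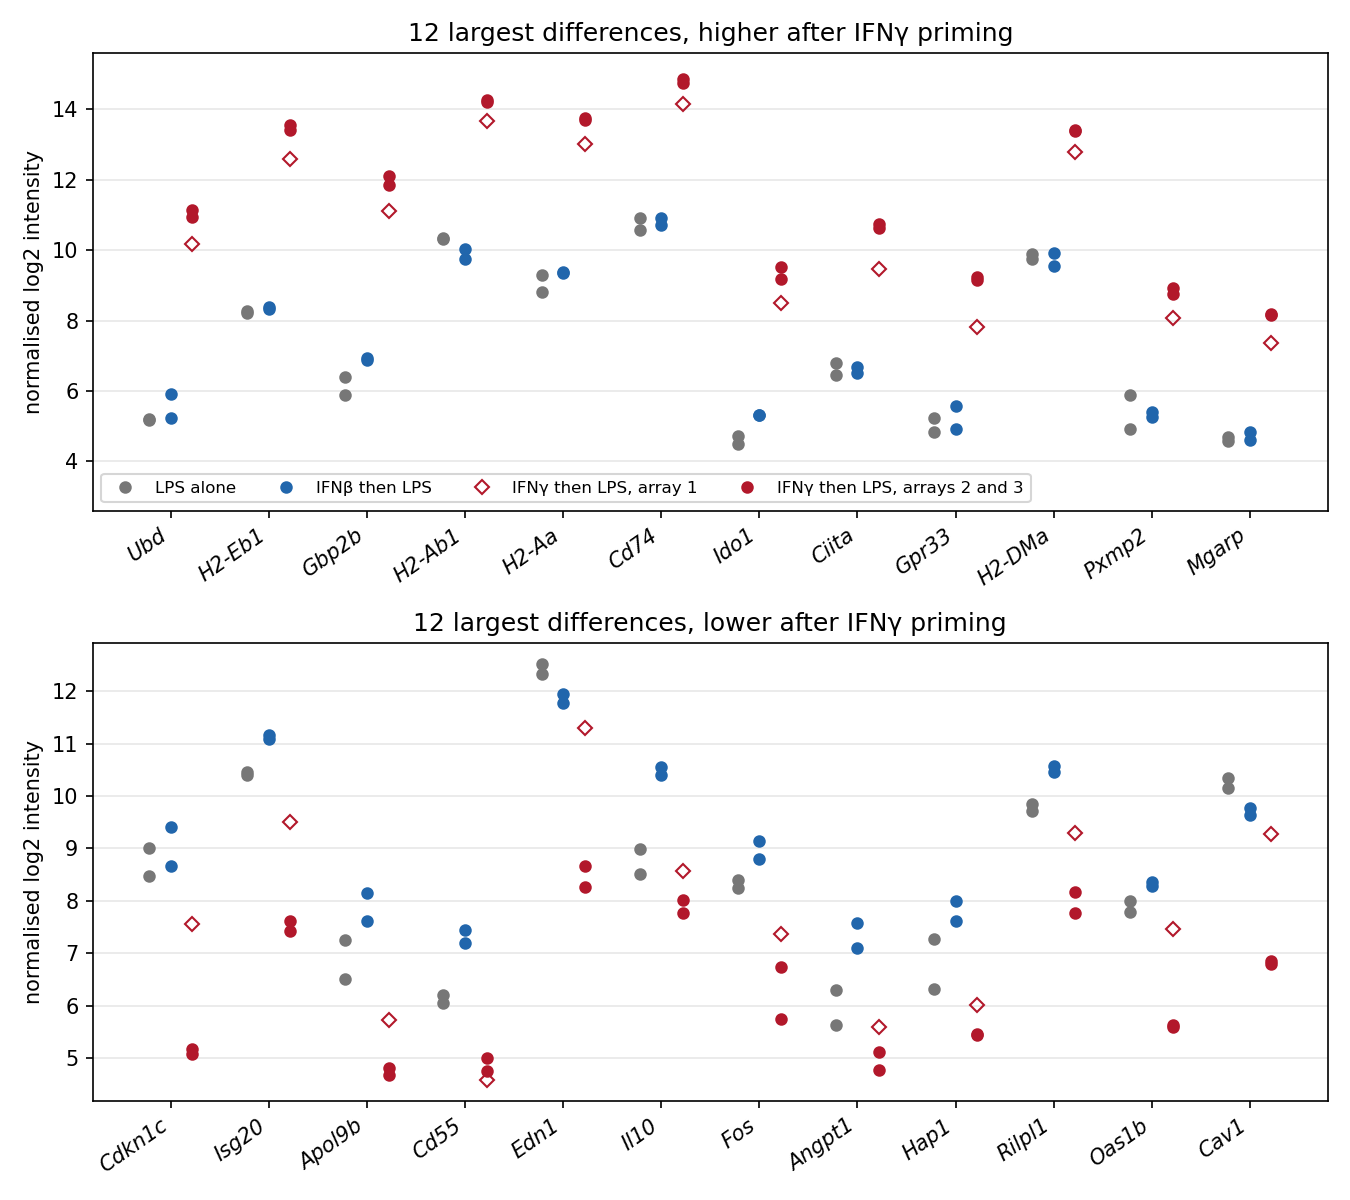
Normalised log2 intensity on each LPS array for the 12 genes with the largest differences above and the 12 with the largest below; grey points are LPS alone, blue points IFNβ-primed, filled red points IFNγ-primed arrays 2 and 3, and open red diamonds IFNγ-primed array 1. In the lower panel array 1 lies between arrays 2 and 3 and the IFNβ-primed arrays for 11 of the 12 genes, all but Cd55.

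Promoters of the genes with the largest differences are shown because both interferons act through short promoter elements. They are RefSeq sequences on GRCm38.p6, 250 bases before to 50 after the gene's start, for the 3 highest and 3 lowest genes that have an entry. The motifs searched, on both strands, are in capitals: GAS (TTCNNNGAA), ISRE (GAAANNGAAA), CCAAT and the class II X box (AGCAACNGATG). The X box was added to the search after the H2-Eb1 promoter had been read.
Ubd: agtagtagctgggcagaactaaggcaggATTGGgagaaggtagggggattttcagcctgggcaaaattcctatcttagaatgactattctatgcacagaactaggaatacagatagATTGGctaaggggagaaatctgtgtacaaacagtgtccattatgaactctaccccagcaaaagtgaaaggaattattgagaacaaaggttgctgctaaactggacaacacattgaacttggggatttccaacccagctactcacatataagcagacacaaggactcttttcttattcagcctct
H2-Eb1: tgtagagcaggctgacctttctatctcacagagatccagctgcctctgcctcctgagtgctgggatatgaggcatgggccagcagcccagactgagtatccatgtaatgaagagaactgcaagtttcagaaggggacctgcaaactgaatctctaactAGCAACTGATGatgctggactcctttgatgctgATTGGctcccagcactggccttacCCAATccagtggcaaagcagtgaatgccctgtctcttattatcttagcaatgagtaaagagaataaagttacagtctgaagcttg
Gbp2b: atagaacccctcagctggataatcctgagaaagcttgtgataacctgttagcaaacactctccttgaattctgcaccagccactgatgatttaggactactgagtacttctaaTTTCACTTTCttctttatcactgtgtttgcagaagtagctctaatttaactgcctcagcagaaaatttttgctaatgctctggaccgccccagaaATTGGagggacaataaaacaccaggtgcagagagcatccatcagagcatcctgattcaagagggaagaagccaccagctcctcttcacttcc
Isg20: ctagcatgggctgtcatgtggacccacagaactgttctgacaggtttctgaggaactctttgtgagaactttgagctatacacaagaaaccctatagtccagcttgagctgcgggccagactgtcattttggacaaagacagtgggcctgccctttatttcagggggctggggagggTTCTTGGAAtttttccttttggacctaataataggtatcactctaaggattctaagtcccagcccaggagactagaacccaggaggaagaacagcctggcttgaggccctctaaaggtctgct
Apol9b: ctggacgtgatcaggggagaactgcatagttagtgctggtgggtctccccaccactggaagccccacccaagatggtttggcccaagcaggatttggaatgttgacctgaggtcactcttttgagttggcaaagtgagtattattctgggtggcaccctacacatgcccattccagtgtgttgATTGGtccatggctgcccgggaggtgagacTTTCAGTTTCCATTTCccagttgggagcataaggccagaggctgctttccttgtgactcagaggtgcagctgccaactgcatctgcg
Cd55: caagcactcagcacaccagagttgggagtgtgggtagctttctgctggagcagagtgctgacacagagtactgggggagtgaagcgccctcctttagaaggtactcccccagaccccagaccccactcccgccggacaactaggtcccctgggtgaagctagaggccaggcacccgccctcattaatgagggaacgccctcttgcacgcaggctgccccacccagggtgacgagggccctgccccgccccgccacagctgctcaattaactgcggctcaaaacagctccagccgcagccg
Ubd lies at chr17:37193642-37193941 on the plus strand, H2-Eb1 at chr17:34305617-34305916 on the plus strand and Gbp2b at chr3:142594597-142594896 on the plus strand. Isg20 lies at chr7:78913174-78913473 on the plus strand, the first of its 3 listed starts, Apol9b at chr15:77728822-77729121 on the plus strand, the first of its 2, and Cd55 at chr1:130462695-130462994 on the minus strand. The H2-Eb1 window held the X box at −92 and CCAAT in both orientations, inverted at −59 and forward at −35. CCAAT is the core of the class II Y box, but whether either match is part of one was not tested. The Gbp2b window held 1 ISRE at −137, the Apol9b window a pair of overlapping ISRE matches at −37 and −31, and the Isg20 window 1 GAS at −73. The Ubd and Cd55 windows held neither GAS nor ISRE. Over all 27025 genes with a promoter entry, each taken at its first listed start, 8.47% held a GAS and 3.49% an ISRE. A CCAAT was present in 37.9% of them and the X box in 0.0814%. Among genes counted here, 5393 had an entry, and 7.03% of these held a GAS and 3.62% an ISRE. A GAS was present in 7.93% of the 391 genes called higher that had an entry and in 7.79% of the 411 called lower, and an ISRE in 4.35% and 6.33%. These shares are a description of the letters in the windows.

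Several genes were detected after IFNγ priming and on no IFNβ-primed array, so their folds are lower bounds. A bound sets the IFNγ-primed mean against the lowest signal detected on each IFNβ-primed array, or the gene's own signal there where that was higher. Ido1, which breaks down tryptophan, was at 8.51, 9.52 and 9.18 against 5.33 and 5.31, at least 9.59-fold higher (adjusted p = 1.92e-07). Gpr33, an orphan receptor, was at least 7.61-fold higher, and Pxmp2, a channel of the peroxisomal membrane, at least 6.89-fold. Klri1, a lectin-like receptor of natural killer cells, was at least 4.57-fold higher, Il12rb2, a chain of the receptor for IL-12, at least 4.38-fold, and Mgarp, a mitochondrial protein, at least 4.24-fold. After LPS alone Ido1, Gpr33, Il12rb2 and Mgarp were not detected either, and Pxmp2 and Klri1 were detected on 1 of 2 arrays each.

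Of 13 class II genes counted, 9 were called higher and 0 lower, with a median difference of 2.73 against −0.01 over all genes counted. The same count, 9, was called without IFNγ-primed array 1 and on the slide alone. List counts here and below stand beside shares over all genes counted of 7.67% higher and 7.59% lower in the fit of all arrays. Those shares were 10.5% and 11.5% without IFNγ-primed array 1 and 3.56% and 2.47% on the slide alone. Where a list lies near these shares, its count is a description and not a trait of the list. Genes of costimulation, adhesion and checkpoint ligands moved both ways, with 5 of 15 higher and 2 lower in the fit of all arrays, 5 and 3 without IFNγ-primed array 1, and 2 and 0 on the slide alone. Slamf1, a self-ligand on activated leukocytes, was at 11.26, 11.76 and 11.57 against 9.64 and 9.74, a difference of 1.84 ± 0.15 (adjusted p = 5.23e-06). Cd86, a ligand of Cd28, was higher by 1.02 log2 and Pdcd1lg2, a ligand of PD-1, which was detected on no IFNβ-primed array, by at least 1.71-fold. Tnfsf4, the ligand of OX40, and Lgals9, a galectin, were lower, at −0.88 and −0.86. Cd274, the other ligand of PD-1, was at 14.67, 14.88 and 14.80 against 14.46 and 14.27 and was not called (adjusted p = 0.0771). Pdcd1lg2 lost its call without IFNβ array 1 (adjusted p up to 0.0529). Lgals9 lost its call without IFNγ array 2 or 3 or IFNβ array 2 (adjusted p up to 0.155). Its second probe gave −0.53 and was not called (adjusted p = 0.0789 over all detected probes).

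Markers of dendritic cells moved with class II. Of 4 such genes counted, 3 were higher: Clec9a, detected on no IFNβ-primed array, by at least 1.67-fold, Batf3 by 1.31 log2 and Ccr7, a homing receptor, by at least 1.47-fold. Cd1d1, the fourth, differed by 0.56 (adjusted p = 0.187). The summed linear intensity of 5 measured dendritic markers was 614 to 901 on the IFNγ-primed and 373 to 450 on the IFNβ-primed arrays, and Itgae was detected on none of them. In bulk RNA more cells of a type and more RNA per cell cannot be told apart, and the part of these markers in the class II difference was not tested. Among B cell markers, Blnk was lower (−1.07) and the summed level of 2 genes was 394 to 837 against 1070 to 1110. Neutrophil markers summed to 2080 to 2720 against 2740 to 2760, and Camp was lower (−1.0). Without IFNγ-primed array 1, 2 of the 5 neutrophil genes counted were lower. Blnk lost its call without IFNγ array 2 or IFNβ array 1 or 2 (adjusted p up to 0.0718). Camp lost its call without IFNγ array 2 or 3 or IFNβ array 2 (adjusted p up to 0.251).

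The IFNγ-inducible GTPases, which attack the vacuoles of intracellular microbes, mostly did not separate the primings once LPS had been given. Of 14 counted, 2 were higher and 0 lower, with a median difference of 0.16, and on the slide alone 1 was higher. Beside Gbp2b, Gbp11 was called, at 7.24, 7.76 and 7.95 against 6.60 and 7.10 (0.80, adjusted p = 0.0206). Gbp2 lay close to the ceiling of the arrays in both groups, at 15.31, 15.31 and 15.30 against 15.15 and 15.14, and 1 of its other probes was called, at 0.65 (adjusted p = 0.0408 over all detected probes). Gbp5 was at 12.76, 12.99 and 12.94 against 12.77 and 12.70 and Gbp3 at 13.76, 13.45 and 13.47 against 13.79 and 14.16, and neither was called (adjusted p = 0.721 and 0.156). Tgtp1 differed by 0.51 (adjusted p = 0.162) and was called without IFNγ-primed array 1 (0.70, adjusted p = 0.0374), as were 4 of the 14 genes in all. Gbp11 lost its call without IFNγ array 2 or 3 or IFNβ array 1 (adjusted p up to 0.164).

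Class I presentation was likewise close to even. Of 20 genes counted, 1 was higher and 1 lower, and the median difference was 0.05, a value that turned to −0.002 with cyclic loess. Leaving out IFNγ-primed array 1 gave 3 higher and 1 lower. Pdia3, a chaperone of the peptide-loading complex, was higher at 13.08, 13.21 and 13.05 against 12.34 and 12.47 (0.71, adjusted p = 0.0106). H2-T10, a non-classical class I gene, was lower at 7.16, 7.19 and 7.28 against 8.40 and 8.60 (−1.29, adjusted p = 0.000662). Tap1, a subunit of the transporter that feeds peptides to class I, was at 10.15, 9.78 and 9.93 against 10.24 and 10.55 and was not called (adjusted p = 0.359). Pdia3 lost its call without IFNβ array 1 (adjusted p up to 0.0673).

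Genes of interferon signalling split in direction, with 5 of 23 higher and 4 lower, 5 and 5 without IFNγ-primed array 1, and 4 and 2 on the slide alone. Irf1, a transcription factor induced by interferon, was higher at 14.98, 15.15 and 15.22 against 14.40 and 14.25 (0.79 ± 0.13, adjusted p = 0.0015). Irf8, the macrophage and dendritic cell factor, was higher at 12.76, 13.46 and 13.50 against 11.73 and 12.39, and Stat4, which carries IL-12 signals, at 7.34, 8.08 and 7.93 against 6.56 and 6.38. The feedback inhibitors Socs1 and Cish were higher by 1.62 and 1.22, and Socs3 differed by 0.28 (adjusted p = 0.428). Irf7, which amplifies type I interferon, was lower at 10.96, 10.45 and 10.60 against 11.66 and 12.01 (−1.16, adjusted p = 0.0044). Ifnb1 itself, the gene of the cytokine used for priming, was at 7.90, 7.95 and 8.23 against 8.24 and 8.23 and at 7.96 and 7.84 after LPS alone, a range of less than 1 log2 unit over all 7 arrays. Socs1, Cish and Irf7 lost their calls without IFNβ array 2 (adjusted p up to 0.0594, 0.0689 and 0.0617). Irf8 lost its call without IFNγ array 2 or 3 or IFNβ array 1 (adjusted p up to 0.133). For Stat4 a second probe gave 0.94 and was not called (adjusted p = 0.0551 over all detected probes).

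Antiviral genes were the clearest group on the other side. Of 34 counted, 13 were lower after IFNγ priming and 0 higher, with a median difference of −0.49. Without IFNγ-primed array 1, 14 were lower, and on the slide alone 6 were lower. Isg20, an exonuclease that degrades viral RNA, was at 9.50, 7.43 and 7.61 against 11.09 and 11.16 (−2.95 ± 0.42, adjusted p = 0.000466). Oas1b, of the oligoadenylate synthetase family, was at 7.46, 5.60 and 5.63 against 8.27 and 8.37, and Ifit3 at 14.0, 12.41 and 12.59 against 15.04 and 14.99. The groups did not overlap for any of the 3, which for Isg20 and Oas1b was a condition of being named. Array 1 lay nearer to the IFNβ-primed arrays than arrays 2 and 3 did for each of the 3. Oas1b was detected on only 1 of the 3 IFNγ-primed arrays, so the size of its difference depends on values at background. Mx2 and Mx1, of the Mx family of dynamin-like GTPases, were lower, at differences of −1.52 and −0.87. The RNA sensor RIG-I, listed as Ddx58, was lower as well (−1.07, adjusted p = 0.0446). Isg15, a ubiquitin-like modifier, was at 14.42, 14.11 and 14.01 against 14.68 and 14.57 and Ifit2 at 14.88, 14.44 and 14.62 against 15.17 and 15.23; neither was called (adjusted p = 0.213 and 0.243). Mx1 and Ddx58 lost their calls without IFNγ array 2 or 3 or IFNβ array 1 or 2 (adjusted p up to 0.121 and 0.283).

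The other large differences with lower levels after IFNγ priming lay outside the antiviral list. Cdkn1c, the cyclin-dependent kinase inhibitor p57, had the largest, at 7.55, 5.17 and 5.07 against 9.41 and 8.67 (−3.11 ± 0.54, adjusted p = 0.00196). It was detected on only 1 of the 3 IFNγ-primed arrays, so the size of its difference depends on values at background. Apol9b, of the apolipoprotein L family, was detected on no IFNγ-primed array and was at least 4-fold lower there. Cd55, which protects cells from complement, was at 4.57, 5.0 and 4.76 against 7.19 and 7.44, at least 2.7-fold lower. Angpt1, a ligand of the Tie2 receptor, was at least 2.76-fold lower, Lipn, a lipase, at least 1.99-fold and Htr2b, a serotonin receptor, at least 1.95-fold. Fos, a subunit of AP-1, differed by −2.36, Hap1, a partner of huntingtin, by −2.17 and Rilpl1 by −2.10. Hap1 too was detected on only 1 of the 3 IFNγ-primed arrays. Edn1, the precursor of endothelin-1, and Cav1, the coat protein of caveolae, spread widely among the IFNγ-primed arrays. Edn1 was at 11.30, 8.26 and 8.67 against 11.95 and 11.78 and Cav1 at 9.27, 6.84 and 6.79 against 9.78 and 9.64, array 1 being within 1 log2 unit of the IFNβ-primed arrays for both. Edn1 and Cav1 lost their calls without IFNγ array 2 or 3 or IFNβ array 1 or 2 (adjusted p up to 0.0706 and 0.0752). Against LPS alone, Cdkn1c, Edn1 and Cav1 were called lower with IFNγ (−2.81, −3.02 and −2.61). With IFNβ they were not called (0.30, −0.56 and −0.54). Apol9b, Fos, Hap1, Rilpl1 and Htr2b were likewise called below LPS alone only with IFNγ, and Lipn with neither. Cd55 and Angpt1 were called below LPS alone with IFNγ (−1.34 and −0.81) and above it with IFNβ (1.19 and 1.38). On the slide alone 0 genes were called with IFNβ against LPS alone.

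Il10, the main anti-inflammatory cytokine of macrophages, was lower after IFNγ priming, at 8.57, 8.02 and 7.77 against 10.56 and 10.40. The difference was −2.36 ± 0.24 (adjusted p = 3.78e-05), −2.58 without IFNγ-primed array 1. After LPS alone Il10 stood at 8.52 and 9.0, so the IFNβ-primed arrays lay above it (1.72, adjusted p = 0.0166) and the IFNγ-primed mean differed from it by −0.64 (adjusted p = 0.101). The call of Il10 above LPS alone was lost on the slide alone and without LPS-alone array 1, where 0 genes were called higher with IFNβ. Of 25 anti-inflammatory and feedback genes counted, 8 were lower and 2 higher, and 3 and 2 on the slide alone. Dusp4, a phosphatase of MAP kinases, and Tnfrsf1b, the second TNF receptor, were lower, at differences of −1.87 and −1.24. Maf, a factor that drives Il10, was detected on no IFNγ-primed array and was at least 1.8-fold lower. Nfil3, a bZIP repressor, was higher at 10.79, 11.34 and 11.34 against 9.87 and 9.60. A second probe of Dusp4 gave −0.70 and was not called (adjusted p = 0.112 over all detected probes). Dusp4 lost its call without IFNβ array 2 (adjusted p up to 0.0578). Tnfrsf1b lost its call without IFNγ array 2 or 3 or IFNβ array 1 or 2 (adjusted p up to 0.144).

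Inflammatory cytokines did not move as one. Of 19 counted, 2 were higher and 4 lower, 4 and 9 without IFNγ-primed array 1, and 2 and 1 on the slide alone. Tnf was at 14.06, 13.96 and 13.88 against 13.47 and 13.72 and was not called (adjusted p = 0.314). Il6 was at 9.89, 9.48 and 9.35 against 10.07 and 10.36 (−0.64, adjusted p = 0.0452). Il1b was at 13.52, 11.66 and 11.92 against 12.87 and 12.78, so that array 1 lay above both IFNβ-primed arrays and arrays 2 and 3 below them. Its difference was −0.46 (adjusted p = 0.491) with array 1 and −1.03 (adjusted p = 0.00457) without it. Il12a, the p35 subunit of IL-12, showed the same split, at 6.68, 5.13 and 5.84 against 6.65 and 6.13 (−0.51, adjusted p = 0.307; −0.91, adjusted p = 0.0113, without array 1). Il27 was at 11.72, 12.09 and 12.12 against 11.67 and 11.57 and was called only without array 1 (0.48, adjusted p = 0.0427). The genes called higher were Tnfsf13b, the B cell factor BAFF, at 7.81, 7.95 and 8.65 against 6.07 and 5.19, and Mif, at 14.05, 14.60 and 14.45 against 13.41 and 13.15. Csf1, Il1a and Tnfsf10, which encodes TRAIL, were lower, at differences of −1.41, −1.07 and −0.96. Il6 and Il1a lost their calls without IFNγ array 2 or 3 or IFNβ array 1 or 2 (adjusted p up to 0.281 and 0.106). Csf1 lost its call without IFNβ array 1 or 2 (adjusted p up to 0.0851).

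Chemokines leaned towards IFNβ priming, with 1 of 17 higher and 4 lower and a median difference of −0.51. Cxcl9, the T cell attractant induced by IFNγ, was the 1 higher, at 15.33, 15.19 and 15.41 against 14.33 and 14.06, close to the ceiling. The monocyte attractants Ccl2 and Ccl7 were at 12.88, 11.42 and 11.54 against 13.31 and 13.51 and at 14.27, 13.04 and 13.23 against 14.70 and 14.92, array 1 being the highest of the IFNγ-primed arrays for both. Ccl9 and Ccl6 were lower, at differences of −0.88 and −0.74. On the slide alone 0 of the 4 stayed called, and without IFNγ-primed array 1, with all other arrays, 8 were lower. Cxcl2, a neutrophil attractant, was at 9.41, 7.44 and 7.20 against 9.35 and 8.85 (−1.08, adjusted p = 0.139; −1.78, adjusted p = 6.34e-05, without array 1). Cxcl10 and Ccl5 were within 1 log2 unit of the ceiling on every array of both groups and were not called (adjusted p = 0.522 and 0.676). Ccl2 lost its call without IFNγ array 2 or 3 or IFNβ array 2 (adjusted p up to 0.0929). Ccl7 lost its call without IFNβ array 2 (adjusted p up to 0.089). Ccl9 lost its call without IFNγ array 2 or 3 or IFNβ array 1 or 2 (adjusted p up to 0.155). Ccl6 lost its call without IFNγ array 2 or IFNβ array 2 (adjusted p up to 0.0904).

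The Toll-like receptor pathway was lower after IFNγ priming where it was called at all, with 6 of 24 genes lower and 0 higher. Tlr3, the receptor for double-stranded RNA, was at 7.08, 6.47 and 5.77 against 8.25 and 8.51 (−1.94 ± 0.28, adjusted p = 0.000583). Tlr4, the receptor for LPS itself, was at 8.50, 8.35 and 8.39 against 9.12 and 9.31 (−0.80, adjusted p = 0.00323), and another probe of it gave −0.57 without a call (adjusted p = 0.24). Tlr2, Tlr8 and Tlr13 were lower, at differences of −1.30, −1.32 and −1.0, with array 1 level with the IFNβ-primed arrays for Tlr8, at 9.39, 7.54 and 7.55 against 9.39 and 9.56. Without array 1 the lower calls of this list came to 10, and on the slide alone to 2. Among 22 NF-kB subunits and feedback genes, Birc3 was higher (0.64) and Nfkbiz, the inducible co-regulator IκBζ, lower (−0.92). This list gave 2 higher and 2 lower without IFNγ-primed array 1, and on the slide alone 0 and 1. Tlr2, Tlr8, Nfkbiz and Birc3 lost their calls without IFNγ array 2 or 3 or IFNβ array 1 or 2 (adjusted p up to 0.0921, 0.205, 0.0852 and 0.136). Tlr13 lost its call without IFNγ array 2 or 3 or IFNβ array 2 (adjusted p up to 0.31). Its second probe gave −0.55 and was not called (adjusted p = 0.181 over all detected probes).

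Inflammasome and lytic death genes split evenly, 2 higher and 2 lower of 15. They gave 2 higher and 5 lower without IFNγ-primed array 1, and 0 were called on the slide alone, where Naip5 had an adjusted p of 0.0647. Ripk3, the kinase of necroptosis, and Pycard, the adaptor ASC, were higher by 0.81 and 0.79. Naip5 and Naip2, sensors of flagellin and of bacterial secretion systems, were lower, at differences of −1.29 and −0.78. Aim2, the sensor of cytosolic DNA, was at 7.27, 5.63 and 4.70 against 7.46 and 7.29, not called with array 1 (adjusted p = 0.0629) and called without it (−2.21, adjusted p = 0.000188). Ripk3 lost its call without IFNγ array 2 or 3 or IFNβ array 1 or 2 (adjusted p up to 0.2). Pycard lost its call without IFNγ array 2 or 3 or IFNβ array 1 (adjusted p up to 0.138). Naip2 lost its call without IFNβ array 2 (adjusted p up to 0.0859).

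Nos2, which makes nitric oxide, was at 10.81, 11.14 and 11.28 against 9.72 and 10.75, a difference of 0.84 that was not called (adjusted p = 0.0837). It was called under 5 of the other settings, among them with IFNβ-primed array 2 left out (adjusted p = 0.0256) and median scaling (adjusted p = 0.0232). Of 16 genes of nitric oxide, arginine and oxidant metabolism, the 2 called were Slc7a2, which imports arginine, at 10.16, 10.55 and 10.53 against 8.44 and 9.0 (1.69, adjusted p = 0.000237), and Gch1, which makes the cofactor of Nos2, lower (−0.71). The list gave 2 higher and 3 lower without IFNγ-primed array 1, and on the slide alone 1 and 0. Gch1 lost its call without IFNγ array 3 or IFNβ array 1 or 2 (adjusted p up to 0.0752).

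Glycolysis was higher after IFNγ priming, with 8 of 17 genes called higher and 0 lower and a median difference of 0.52, and 7 of the 8 were called on the slide alone. Without IFNγ-primed array 1, 9 were higher and 0 lower. Hif1a, the factor that induces these enzymes, was at 10.19, 10.62 and 10.16 against 8.39 and 9.30 (1.48 ± 0.25, adjusted p = 0.00191). Pfkp, a phosphofructokinase, was at 11.67, 11.84 and 11.82 against 10.39 and 10.45, and Hk2, a hexokinase, at 11.80, 12.03 and 12.11 against 11.15 and 10.88. Tpi1 and Pgam1, further enzymes of the pathway, were higher by 1.07 and 1.07 on the log2 scale. The IFNγ-primed arrays, array 1 included, lay above both IFNβ-primed arrays for all 5. Of 36 genes of the TCA cycle and respiratory chain, 0 were higher and 1 lower, Idh2 (−0.62), and 3 were higher and 2 lower without IFNγ-primed array 1. Idh2 lost its call without IFNβ array 2 (adjusted p up to 0.0862).

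Stress and amino acid genes also leaned towards IFNγ. Of 20 genes of the unfolded protein and heat shock responses, 6 were higher and 0 lower, with a median of 0.36, and 1 was called on the slide alone. Without IFNγ-primed array 1, 7 were higher and 0 lower. Beside Pdia3 and Atf4, the 6 were the chaperone partners Dnajc3 (0.82) and Dnajb9 (0.60), Pdia6 (0.75) and Herpud1, a membrane protein of degradation from the endoplasmic reticulum (0.62). Of 10 genes of the Atf4 and serine synthesis list, 4 were higher and 0 lower, 4 and 1 without IFNγ-primed array 1, and 2 and 0 on the slide alone. The 4 were Psat1, which makes serine, at 11.19, 11.35 and 11.52 against 9.63 and 10.06 (1.51, adjusted p = 0.000351), the stress regulator Nupr1 (0.85), the asparagine synthetase Asns (0.66) and Atf4 itself (0.58). Other probes of Asns gave 0.20 and 0.28 and were not called (adjusted p = 0.71 and 0.42 over all detected probes). In that fit the probe used for Asns lost its call (adjusted p = 0.05075). Against LPS alone the same lists had medians of 0.21 and 0.03 with IFNγ and −0.20 and −0.16 with IFNβ. Dnajc3 lost its call without IFNγ array 3 or IFNβ array 2 (adjusted p up to 0.201). Dnajb9 and Pdia6 lost their calls without IFNγ array 2 or 3 or IFNβ array 1 or 2 (adjusted p up to 0.11 and 0.133). Herpud1 lost its call without IFNγ array 2 or IFNβ array 2 (adjusted p up to 0.124). Asns lost its call without IFNγ array 1 or 2 or 3 or IFNβ array 2 (adjusted p up to 0.349). Atf4 lost its call without IFNγ array 2 or 3 or IFNβ array 1 (adjusted p up to 0.251).

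Of 9 genes of prostaglandin and leukotriene synthesis, 4 were higher and 1 lower, 4 and 2 without IFNγ-primed array 1, and 2 and 1 on the slide alone. Ptgs2, the inducible cyclooxygenase, was at 9.11, 9.22 and 9.62 against 7.73 and 8.51 (1.20, adjusted p = 0.00855). Pla2g7, a lipase that inactivates platelet-activating factor, Tbxas1, the thromboxane synthase, and Pla2g15, a lysosomal phospholipase, were higher by 1.38, 1.35 and 0.76. Hpgds, the prostaglandin D synthase, was lower at 9.48, 9.45 and 9.48 against 10.37 and 10.27 (−0.85). Of 18 sterol synthesis genes 1 was called, Insig2, which holds the sterol sensor in the endoplasmic reticulum (0.74). Without IFNγ-primed array 1 sterol genes gave 1 higher and 4 lower. Against LPS alone this list had medians of −0.71 and −0.72 with IFNγ and IFNβ. Of 9 genes of oxysterols and cholesterol efflux, 3 were lower: Nr1h3, the oxysterol receptor LXRα, at 9.91, 9.12 and 9.15 against 10.57 and 10.75 (−1.27), Ch25h, which makes 25-hydroxycholesterol, at 10.53, 10.14 and 10.65 against 11.39 and 11.46 (−0.99), and Apoe (−0.58). Ptgs2 lost its call without IFNβ array 1 (adjusted p up to 0.0992). Pla2g7 and Insig2 lost their calls without IFNβ array 2 (adjusted p up to 0.0528 and 0.0735). Pla2g15 lost its call without IFNγ array 2 or 3 or IFNβ array 2 (adjusted p up to 0.337). Apoe lost its call without IFNγ array 2 or 3 or IFNβ array 1 or 2 (adjusted p up to 0.118). For Nr1h3 a second probe gave −0.91 and was not called (adjusted p = 0.14 over all detected probes).

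Markers of alternative activation, a programme known for interleukin-4, were higher for 4 of 10 genes and lower for 1, or 3 without IFNγ-primed array 1. Egr2 was at 8.74, 9.57 and 9.45 against 7.41 and 6.76 (2.17, adjusted p = 0.000153) and Clec10a, a galactose-binding lectin, at 8.84, 9.96 and 9.98 against 7.73 and 7.35 (2.05). Mgl2, a second such lectin, and Tgm2, a transglutaminase, were higher by 1.35 and 0.78, and Pparg, the lipid-sensing receptor, was lower (−1.33). Clec10a and Mgl2 are close relatives, and cross-hybridisation of their probes was not tested. Timp1, an inhibitor of matrix proteases, was at 10.23, 10.93 and 10.93 against 8.41 and 8.15 (2.41, adjusted p = 0.000153), while Timp2 and Adam8 were lower (−1.34 and −0.98). The matrix list gave 1 higher and 3 lower without IFNγ-primed array 1, and 1 and 0 on the slide alone. Mmp12, the macrophage elastase, was at 11.82, 8.01 and 8.32 against 11.25 and 11.96, so that array 1 lay within the IFNβ-primed range and arrays 2 and 3 far below it. It was not called with array 1 (adjusted p = 0.0696) and differed by −3.44 (adjusted p = 3.15e-07) without it. Timp2 lost its call without IFNγ array 2 or 3 or IFNβ array 2 (adjusted p up to 0.25). Adam8 lost its call without IFNβ array 2 (adjusted p up to 0.135).

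Of 27 lysosomal genes, 2 cathepsins were higher, Ctsc (0.72) and Ctsh (0.58), and 3 lower, Ctsk (−1.61), Ctsl (−1.08) and Ctsd (−0.60). These counts are near the shares over all genes counted, 7.67% higher and 7.59% lower. Iron genes split, 2 higher and 2 lower of 12. Slc40a1, the iron exporter ferroportin, was at 9.64, 9.97 and 10.23 against 8.99 and 8.43 (1.24), and Hamp, the hormone hepcidin that removes ferroportin, was at least 1.79-fold higher. Tfrc, the transferrin receptor, was at 9.41, 7.94 and 7.95 against 10.11 and 10.26 (−1.75, adjusted p = 0.00323), and Cp, ceruloplasmin, was lower (−1.22). Tfrc and Rpl13a, at 0.68, were also the 2 called of 10 genes often used as references. Without IFNγ-primed array 1 the lower calls came to 5 lysosomal, 3 iron and 2 reference genes, and the higher calls to 2, 3 and 2. On the slide alone 0 lysosomal and 0 reference genes were called, and 1 iron gene each way. Ctsc, Ctsd and Cp lost their calls without IFNβ array 2 (adjusted p up to 0.0752, 0.123 and 0.0691). Ctsh, Ctsk and Ctsl lost their calls without IFNγ array 2 or 3 or IFNβ array 1 or 2 (adjusted p up to 0.16, 0.14 and 0.0948). Hamp lost its call without IFNγ array 2 or IFNβ array 2 (adjusted p up to 0.174). Rpl13a lost its call without IFNγ array 3 or IFNβ array 2 (adjusted p up to 0.0994).

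Replication and mitosis genes gave 3 lower and 1 higher of 20: Mcm6 (−1.80), the mitotic kinase Plk1 (−1.42) and Cdc20, an activator of the anaphase-promoting complex, were lower and Mcm4 higher (0.48). Cdc20 was detected on no IFNγ-primed array, at least 1.22-fold lower, and its 3 other probes gave 0.18, 0.21 and 0.46 without a call. Of 16 Fc, complement and scavenger receptors 1 was called, the activating Fc receptor Fcgr4 (0.61), and of 20 genes of macrophage identity 3 were lower, Maf, Pparg and Trem2 (−0.44), with a median of −0.38. Without IFNγ-primed array 1 the Fc list gave 2 higher and 5 lower, the identity list 6 lower and the replication list 1 higher and 2 lower. On the slide alone 0 Fc genes were called, 1 identity gene each way and 1 replication gene, lower. The chemokine receptor Ccr7 was the 1 called of 3 receptors counted. Mcm6 and Fcgr4 lost their calls without IFNβ array 2 (adjusted p up to 0.0526 and 0.0803). Plk1 lost its call without IFNβ array 1 (adjusted p up to 0.102). Cdc20 lost its call without IFNγ array 1 or 2 or IFNβ array 1 (adjusted p up to 0.212). Mcm4 and Trem2 lost their calls without IFNγ array 2 or 3 or IFNβ array 1 or 2 (adjusted p up to 0.224 and 0.161).

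**Figure D4:**
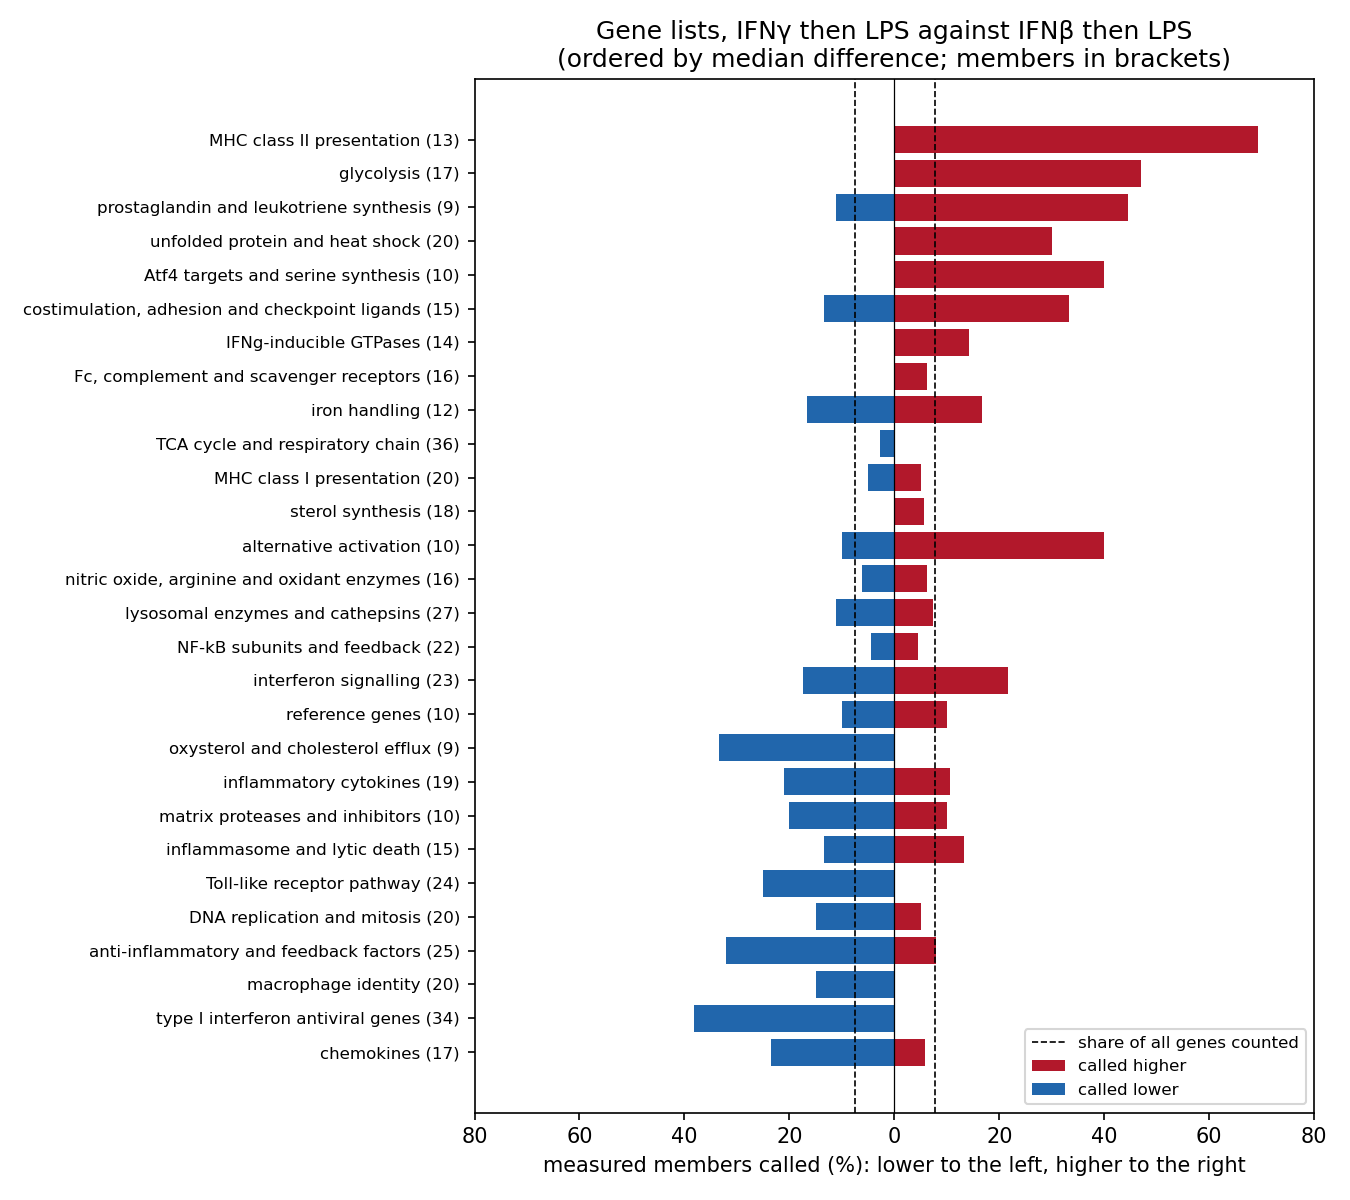
Share of measured members of each gene list called higher (red, to the right) and lower (blue, to the left) after IFNγ priming, in percent, for lists with 9 or more genes counted, ordered by median difference. Dashed lines mark the shares over all genes counted, 7.67% and 7.59%; class II presentation has the longest red bar (9 of 13) and antiviral genes the longest blue one (13 of 34).

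LPS alone gave a common point of reference, with the caution that its 2 arrays enter both comparisons and that the primed arrays are those already compared. Over the genes counted, IFNγ-primed cells had 504 genes above LPS alone (7.73%) and 411 below (6.30%). IFNβ-primed cells had 27 above (0.414%) and 15 below (0.230%). Over the genes detected in either group of each comparison, the shares were 14.2% for IFNγ (7.57% above and 6.67% below) and 0.690% for IFNβ (0.405% and 0.285%). The 500 genes called higher after IFNγ than after IFNβ priming lay a median 0.73 above LPS alone in IFNγ-primed cells and at −0.15 in IFNβ-primed cells. The 495 called lower lay at −0.66 and 0.26. For antiviral genes the medians against LPS alone were −0.25 with IFNγ and 0.28 with IFNβ, and for class II genes 2.53 and 0.05. Of the 34 antiviral genes, 8 were called below LPS alone and 1 above it with IFNγ, and 0 either way with IFNβ. Of the 13 class II genes, 9 were called above LPS alone with IFNγ and 0 with IFNβ. Genes called above LPS alone with IFNβ included Cd55 (1.19), Angpt1 (1.38), Ch25h (1.18), Cxcl9 (1.14) and Tnfsf10 (1.0). The count for IFNβ rests on single arrays: it was 1 without LPS-alone array 1, 24 without LPS-alone array 2, 19 without IFNβ-primed array 1, 4 without IFNβ-primed array 2, and 0 on the slide alone, where 630 genes had an unadjusted p under 0.05. The count for IFNγ, 944 over its own detected genes, was 382 without LPS-alone array 1, 446 without LPS-alone array 2, 475 without IFNγ-primed array 2, 497 without array 3, 1421 without array 1 and 285 on the slide alone.

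Without LPS the same 2 interferons differed at 1560 of the 7193 genes detected with either (21.7%), 723 higher with IFNγ (10.1%) and 837 lower (11.6%). Over the 6523 genes counted here, 674 were higher with IFNγ alone than with IFNβ alone (10.3%) and 718 lower (11.0%). Of the 500 genes higher under LPS, 176 were also higher without it and 25 lower, and of the 495 lower under LPS, 128 were also lower without it and 58 higher. The difference of the 2 differences was tested as an interaction and called for 979 genes (15%), 473 positive (7.25%) and 506 negative (7.76%). Median scaling gave 546 positive and 387 negative, and cyclic loess 332 and 567. It came to 500 calls without IFNβ-primed array 2, to 527 and 532 without IFNβ-alone array 1 or 2, and to 1154 without IFNγ-primed array 1. All LPS arrays were on 1 slide and all others on a second, so in the interaction LPS and slide cannot be told apart, while each difference lies within 1 slide.

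Class II presentation held its difference in both states. Its median was 3.02 without LPS and 2.73 under it, and 4 of the 13 genes had a negative interaction, among them Ciita (5.96 without LPS, 3.68 under LPS). For the GTPases the median was 4.25 without LPS, where all 14 were higher with IFNγ, and 0.16 under it, and 13 had a negative interaction. Gbp5 differed by 5.53 without LPS and Gbp3 by 4.65. Of the 20 class I genes, 15 were higher with IFNγ without LPS and 13 had a negative interaction. Cxcl9 differed by 6.44 without LPS and by 1.11 under it, called in both states. Cxcl10, Socs3 and Calhm6, a channel-like membrane protein, differed by 3.62, 2.40 and 5.28 without LPS and were not called under it. Several of these genes were close to the ceiling of the arrays under LPS, Gbp2 among them, and the part of the ceiling in their interaction was not tested.

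Of the 34 antiviral genes, 13 were higher with IFNγ without LPS and 2 lower, and 19 had a negative interaction. Those called higher without LPS and lower under it were 4: Mx1, Dhx58, Ifi35 and Trim21, of which the last 3 are named here after their values were seen. Mx1 differed by 2.18 without LPS and −0.87 under it. Isg15 differed by 1.28 without LPS and was not called under it (−0.45). Il10 was higher with IFNγ without LPS (1.08, adjusted p = 0.00526) and lower under it (−2.36), an interaction of −3.44 (adjusted p = 1.86e-05). Ch25h had the largest interaction, −6.75, from 5.76 without LPS to −0.99 under it. Tlr4 also crossed, from 0.57 to −0.80.

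Interactions in the other direction were led by Ednrb, an endothelin receptor, at −4.72 without LPS and −0.96 under it. Ubd differed by 1.52 without LPS and 5.18 under it, and Ido1 by 0.87 and 3.75. Without LPS Ido1 was detected on no array of either interferon. Saa3, an acute-phase protein, was lower with IFNγ without LPS (−3.28) and at 14.72, 14.29 and 14.39 against 14.65 and 14.67 under it. Lhfpl2 (−3.01 and −0.13) and Htr2b (−4.36 and −1.70) were likewise further below 0 without LPS than under it. Slamf1 and Egr2 differed by −0.08 and −0.01 without LPS, with interactions of 1.92 and 2.18, and Slamf1 was detected on no array of either interferon without LPS.

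**Figure D5:**
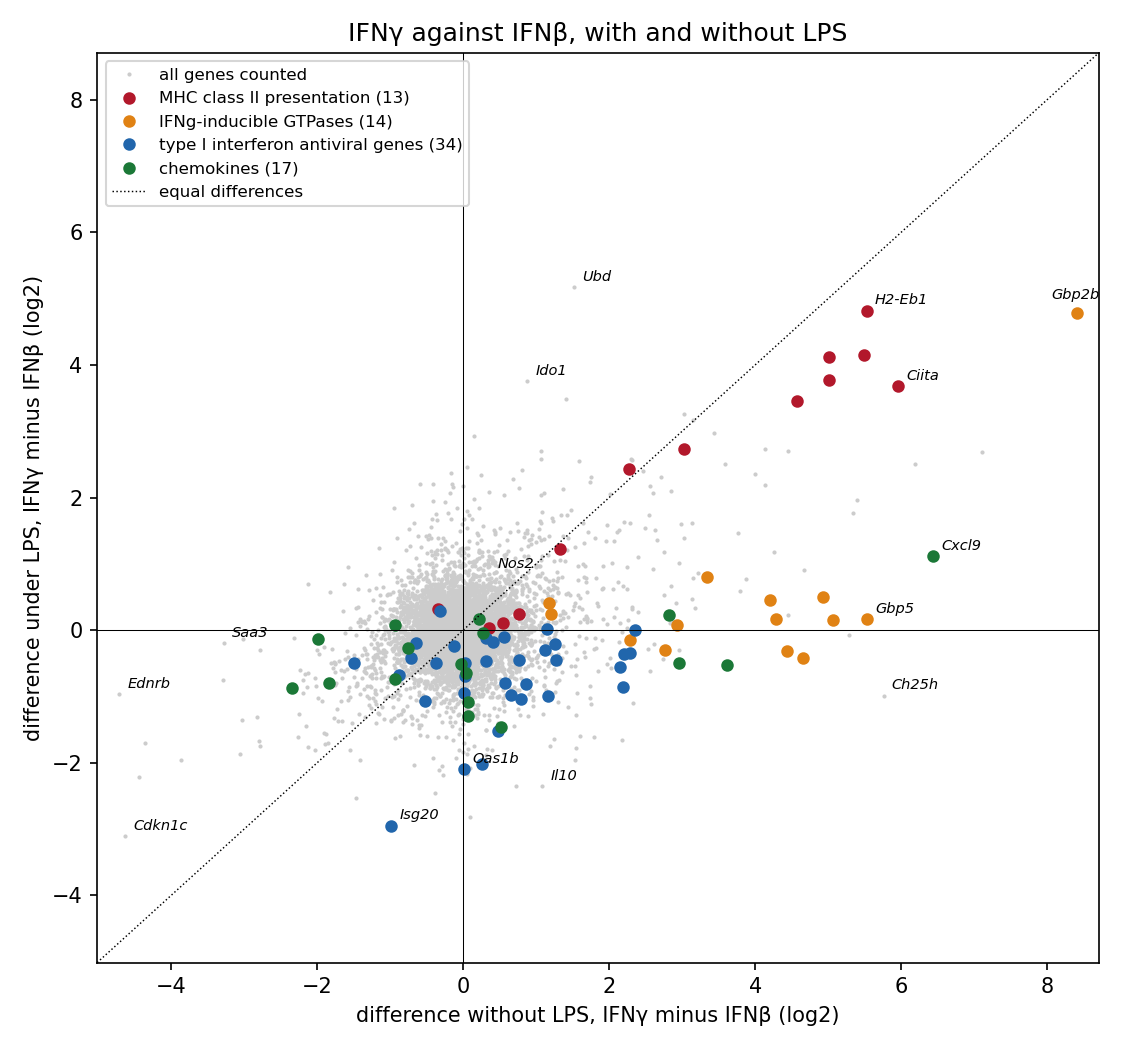
Difference between IFNγ and IFNβ under LPS (vertical) against the difference without LPS (horizontal), both in log2 units, for the 6523 genes counted in grey, with 4 gene lists coloured and leading genes named. Class II genes (red) lie high on both axes, GTPases (orange) lie far to the right and near 0 on the vertical axis, apart from Gbp2b, and antiviral genes (blue) lie mostly below 0.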

How the data were processed

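Total RNA of 15 samples in 6 groups was hybridised to Illumina mouse bead arrays, 1 sample per array, on 2 slides: the 7 LPS arrays on one and the 8 others on the second. The intensity of each probe is the authors' deposited mean bead intensity on a linear scale, not normalised between arrays, and the detection p-value beside it is theirs too, per the file headers. No source used here says how the detection p-values were computed. The authors' deposited log2 values, already normalised between arrays by a method that no source used here names, served as an alternative; they correlated with the values computed here at r of 0.9997 or more on each array.

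Intensities were background-corrected with limma 3.58.1 (R 4.3.3) by nec, using the detection p-values and an offset of 16, quantile-normalised and put on the log2 scale. Of 15978 probes, 11117 were kept, those with a detection p under 0.01 on all arrays of any group. Symbols came from the platform's annotation (14994 probes with 1 symbol, 984 with none, 0 with several); 14985 probes matched RefSeq genes of GRCm38.p6 and 0 symbols changed. The probe with the highest mean stood for its gene, giving 7669 genes. A group-means model over all 15 arrays was fitted with lmFit and eBayes, and p-values were adjusted by Benjamini-Hochberg over all 7669 genes; calls needed an adjusted p under 0.05. All adjusted p-values in the text are limma's. On simulated arrays of the IFNγ-primed against IFNβ-primed comparison with 7669 genes, 81% of 100 genes changed by 1 log2 and 100% of 100 genes changed by 2 log2 were recovered, with 9 false calls. The simulated noise was independent for each gene, with no deviation shared across an array such as that of IFNγ-primed array 1. These rates therefore need not hold for the real arrays. Columns of the files that could not be tied to a sample numbered 0. Figures and promoter searches used Python 3.11.15 with pandas 2.3.3 and matplotlib 3.10.9. Precision is limited by how few arrays there are.

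The rule for which genes were counted, the gene lists, the tests and the alternatives were chosen with earlier results of these data known. Genes were named by a rule: the 12 largest called differences each way with groups that do not overlap, the 5 largest lower-bound folds each way, the genes of a readout list of cytokines and interferon targets, up to 5 called and 2 uncalled members of each list by size, and the 6 largest interactions each way, passing over symbols that only number a transcript. The rule gave 204 genes. All 127 called ones are named, and 53 uncalled ones were left out after their values were seen. The alternatives were other background corrections, scalings, detection filters, variance models, the replicate number as a block, fewer arrays in the fit, and each array left out in turn.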

Additional observations from a re-analysis of the deposited data

Results flagged for a closer look

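The difference between IFNγ and IFNβ was itself different with and without LPS for 72 of the 151 genes named, by limma's interaction term at an adjusted p under 0.05; the background over all genes counted is 15%. The interaction, written in brackets below, is the difference under LPS minus the difference without LPS in log2 units, negative for 52 genes and positive for 20. The named genes include some chosen for this size, so their share is a description. LPS and slide cannot be told apart here. Without IFNγ-primed array 1, 49 of the negative and all 20 of the positive interactions stayed called, the exceptions being Socs1 (adjusted p = 0.0536), Ctsh (adjusted p = 0.0673) and Fcgr4 (adjusted p = 0.0616).

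Among GTPases and class I genes, all negative, the interactions were Gbp5 (−5.37), Gbp3 (−5.07), Gbp2 (−4.91), Tgtp1 (−4.42), Gbp2b (−3.63), Gbp11 (−2.54), Tap1 (−3.18) and H2-T10 (−2.18). The class II genes were Ciita (−2.29), H2-Ab1 (−1.35), Cd74 (−1.25) and H2-DMa (−1.11), where the difference stayed above 0 in both states. Genes of antiviral defence and interferon signalling with a negative value were Mx1 (−3.05), Apol9b (−2.90), Ifit2 (−2.71), Irf1 (−2.36), Ifit3 (−2.27), Socs3 (−2.12), Oas1b (−2.11), Mx2 (−1.99), Isg20 (−1.96), Tlr3 (−1.84), Isg15 (−1.72), Irf8 (−1.57) and Socs1 (−1.52). For Ch25h the difference went from 5.76 without LPS to −0.99 under it, an interaction of −6.75, and for Calhm6 from 5.28 to −0.07, an interaction of −5.35.

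Cytokines, chemokines and surface ligands with a negative value were Cxcl9 (−5.33), Cxcl10 (−4.14), Il10 (−3.44), Cd274 (−2.50), Ccl2 (−1.98), Il27 (−1.96), Cd86 (−1.93), Tnfsf10 (−1.86), Tnf (−1.48), Ccl7 (−1.36) and Tnfsf4 (−1.20). The other negative values were Fos (−3.08), Hap1 (−2.23), Angpt1 (−1.91), Rilpl1 (−1.78), Mcm6 (−1.74), Ctsc (−1.40), Camp (−1.38), Tlr4 (−1.37), Pfkp (−1.30), Psat1 (−1.12), Cd55 (−1.06), Tgm2 (−0.89), Ctsh (−0.72) and Fcgr4 (−0.62).

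Positive interactions above 2 were those of Ednrb (3.75), Ubd (3.66), Saa3 (3.09), Lhfpl2 (2.88), Ido1 (2.88), Htr2b (2.66), Slc40a1 (2.40), Egr2 (2.18) and Gpr33 (2.07). The other positive ones were Slamf1 (1.92), Ccl5 (1.86), Klri1 (1.63), Timp1 (1.60), Ccr7 (1.51), Ccl9 (1.47), Pla2g15 (1.24), Stat4 (1.12), Insig2 (0.88), Dnajb9 (0.73) and Mcm4 (0.68). Without LPS, 9 of the 72 genes (Apol9b, Hap1, Oas1b, Angpt1, Tlr3, Tnfsf4, Ccr7, Slamf1 and Ido1) were detected on no array of either interferon, so their differences there are not well above background.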

How the results depend on the processing

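Counts under the alternatives were as follows. For IFNγ against IFNβ priming, 995 in the fit of all arrays, the count was 393 on the slide of both groups (232 higher, 161 lower), 176 with only the 5 arrays compared (131 and 45), 845 on that slide without IFNγ-primed array 1 (390 and 455, chosen after seeing the data), 497 to 1441 with 1 array left out, and 805 to 1277 otherwise apart from the block below. Median scaling moved the median of all genes by 0.09 and the share called higher from 50.3% to 63.7%. For the interaction (979) the count was 500 to 1154 with 1 array left out, and the positive share of 48.3% became 36.9% with cyclic loess and 58.5% with median scaling. Without LPS (1560) it was 2539 with array weights and 848 to 1436 with 1 array left out. IFNγ priming against LPS alone (944) gave 285 on the slide, 197 with only its groups and 382 to 1421 with 1 array left out. IFNβ priming against LPS alone (46) gave 29 with cyclic loess, 28 without a detection filter, 11 for genes detected on all arrays, 16 with array weights and 1 to 24 with 1 array left out. By limma it gave 0 on the slide and 0 with only its groups, where 630 and 597 genes had an unadjusted p under 0.05. The labels give the groups shared replicate numbers but no pairing, and arrays of the same number correlated at −0.132 in their deviations; with the replicate number as a block the counts were 706, 753 (interaction), 1339 (without LPS), 651 (IFNγ against LPS alone) and 29 (IFNβ against LPS alone). Of the 127 genes called and named, the block left 107 called, the slide alone 71, that slide without IFNγ-primed array 1 111, only the 5 arrays compared 39, 1 array left out 76 to 125, and the others 118 to 127, except that for genes detected on all arrays 70 of 70 stayed called. Directions that reversed were those of Gbp2 (−0.094 with median scaling, −0.26 with cyclic loess) and Calhm6 (0.17 without IFNβ-primed array 2). Calhm6 was at −0.07 in the fit of all arrays and kept that sign without IFNβ-primed array 1 (−0.31). Neither gene was called in the fit of all arrays. The cause of these changes was not tested, beyond the fewer arrays that some settings use. Signal limits the values as well: 102 genes counted were not detected on any IFNγ-primed array and 78 on any IFNβ-primed array.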
